A study of Mus musculus with 8 samples.

Results

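The mRNAs of the D, E, A and B cyclins were followed in TTE3 cells, a Sertoli cell line of transgenic mouse origin that carries the large T antigen of simian virus 40 in a temperature-sensitive form, during exposure to 0.2 mM bisphenol A (BPA). BPA is a plastics monomer with weak estrogenic activity. The 4 groups had 0, 3, 6 and 12 h of BPA and 2 one-colour Affymetrix arrays each, 8 arrays in all. The members were all probe sets annotated with exactly 1 of the symbols Ccnd1, Ccnd2, Ccnd3, Ccne1, Ccne2, Ccna2, Ccnb1 and Ccnb2. That rule gave 16 of the 22690 probe sets, for 7 of the 8 genes. Ccnd2 had 7 probe sets, Ccnd1 had 3, Ccna2 had 2, and Ccnd3, Ccne1, Ccne2 and Ccnb2 had 1 each. No probe set carried the symbol Ccnb1, so that gene was not analysed here. All 16 probe sets passed the filter on low signals.

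Cyclins are the regulatory subunits of cyclin-dependent kinases (CDKs), and each class acts in its own part of the cell cycle. The D-type cyclins with CDK4 or CDK6 start the phosphorylation of the retinoblastoma protein (Rb) in G1 in answer to growth factors, and the E cyclins with CDK2 carry cells into S phase. Cyclin A2 acts in S phase and G2, and the B cyclins with CDK1 drive mitosis. Large T antigen, which binds Rb and p53 when active, is part of the line in all groups, 0 h included. Cyclin D2 is known as a D-type cyclin of the gonads, in Sertoli and granulosa cells. Sertoli cells divide in the fetal and juvenile testis and stop dividing as they mature.

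All arrays came from this 1 line. Separate cultures for the 2 arrays of each group are not stated in the labels; the p-values therefore measure only the spread between these arrays, which may be technical. Arrays without BPA at 3, 6 or 12 h were not analysed here, so BPA and time in culture cannot be told apart. In a bulk sample, fewer cells of a type and less RNA per cell cannot be told apart either. Median signals per array lay between 150.9 and 170.1, and the 2 arrays of a time correlated at 0.97 to 0.982 on the log2 scale. Of 18 Sertoli cell markers, 16 had a probe set and 11 passed the filter. Clu, Kitl and Gata4 were the brightest, at median signals of 5495, 1492 and 828.5, and Sox9 and Fshr were at 134.85 and 47.25. Left out by the filter were Amh (8.5), Cldn11 (13.1), Dhh (30.6), Gdnf (8.7) and Dmrt1 (27.5). The summed signal of the Sertoli markers, of which Clu (3089.3 to 7747.4 over the 8 arrays) is the largest part and 4 were called against 0 h, went from 10790 to 11130 at 0 h to 6341 to 7460 at 12 h, and that of 7 peritubular and fibroblast markers from 9664 to 9751 to 4474 to 5307. The sum of 8 germ cell markers went from 678.8 to 720.2 at 0 h to 350.6 to 459.9 at 12 h, that of 4 Leydig cell markers from 470.0 to 470.5 to 470.2 to 551.7, that of 4 macrophage markers from 548.3 to 615.9 to 556.2 to 627.9, and that of 4 endothelial markers from 129.6 to 151.5 to 184.5 to 218.9. Single genes were the largest part of other sums too. These were Dcn for the peritubular sum (3908.5 to 8440.4 over the 8 arrays), Kit for germ cells (169.8 to 601.5) and Star for Leydig cells (266.9 to 490.6). Only 2 of the 8 germ cell markers and 1 of the 4 Leydig cell markers passed the filter, and 1 of each list was called against 0 h. Of the 4 endothelial markers 2 passed and 0 were called, and of the 4 macrophage markers 3 passed and 0 were called. Of the 7 peritubular and fibroblast markers 5 passed and 2 were called. The part of the marker shifts in the cyclin results was not tested.

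No cyclin probe set rose against 0 h, where 5.91%, 13% and 17% of all tested probe sets rose at 3, 6 and 12 h, and the number that fell was larger at each later time. Against 0 h, 5 of 16 fell at 3 h, 11 at 6 h and 14 at 12 h (limma, Benjamini-Hochberg adjusted p under 0.05 over 15838 probe sets). The background share of all tested probe sets that fell was 2.87% at 3 h, 8.84% at 6 h and 16.4% at 12 h, against 31.2%, 68.8% and 87.5% of the cyclin probe sets. By gene, 1 of 7 had a probe set that fell at 3 h, 5 at 6 h and 6 at 12 h. That count favours genes with several probe sets. By the brightest probe set of each gene, 1 of 7 fell at 3 h, 4 at 6 h and 6 at 12 h. Of the brightest probe sets of all genes tested, 2.76%, 8.56% and 16.2% fell. The median log2 change of the 16 probe sets, 7 of them of Ccnd2, was -0.40, -0.77 and -1.16, beside 0.041, 0.040 and 0.027 over all tested probe sets. By the brightest probe set of each of the 7 genes the median was smaller, at -0.15, -0.42 and -1.04. For the brightest probe sets of all genes tested it was 0.064, 0.074 and 0.06. The 3 comparisons share the 0 h arrays, and probe sets of 1 gene measure transcripts of the same gene, so neither are independent. With arrays scaled to the same median, the median of all probe sets moved to -0.088 at 3 h and -0.069 at 6 h, and 8 cyclin probe sets fell at 3 h.

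**Figure D1:**
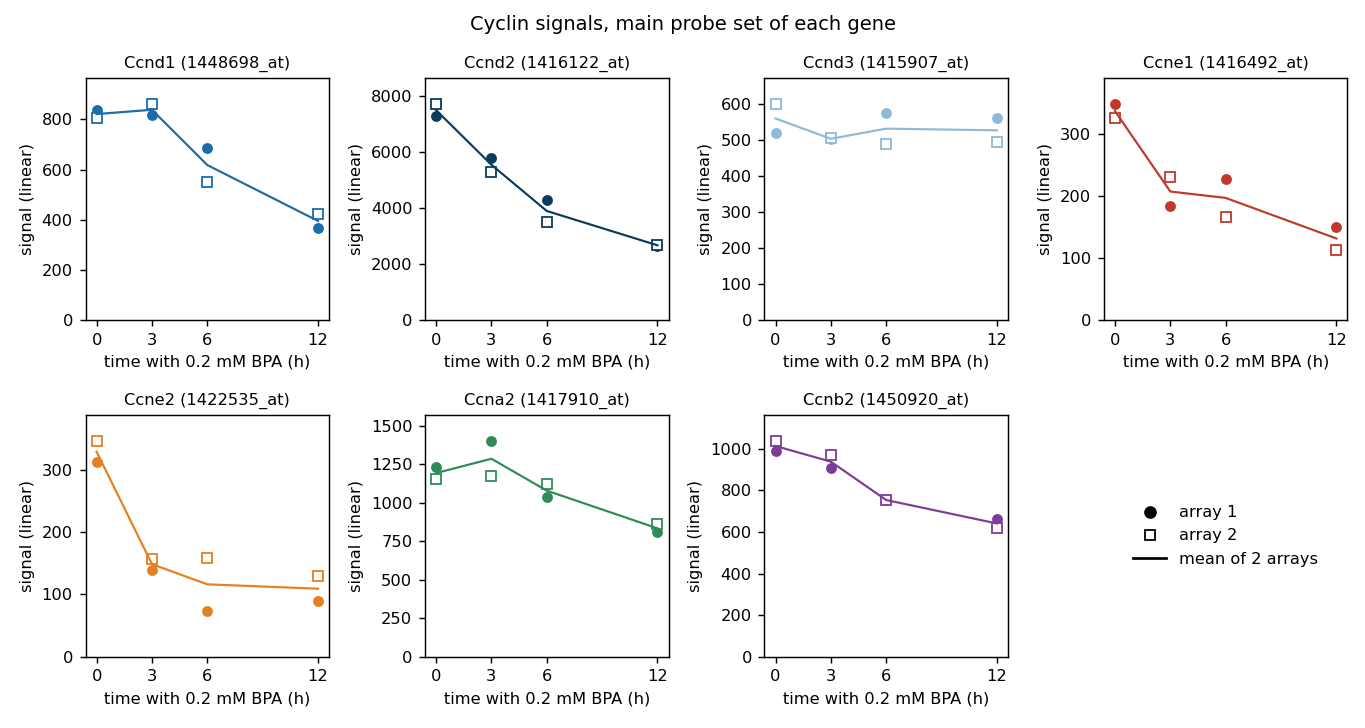
Signal (linear scale, y axis from 0) against hours with 0.2 mM BPA for the brightest probe set of each of 7 cyclin genes; filled circles are array 1, open squares array 2, and the line joins the means of 2 arrays. The mean Ccnd2 signal was lower at each later time, from 7488 to 2667, though its step from 3 to 6 h was not called. Most of the drop of Ccne2 came by 3 h, and Ccnd1 stayed level to 3 h. The Ccnd3 arrays of all times lay between 487.9 and 598.7.

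Cyclin D2 gave the clearest fall. The brightest Ccnd2 probe set on the log2 scale, 1416122_at, read 7282 and 7693 at 0 h, 5784 and 5292 at 3 h, 4288 and 3493 at 6 h, and 2649 and 2685 at 12 h. The 2 arrays of each time lay wholly below those of the time before. The log2 changes against 0 h were -0.44 ± 0.12 at 3 h (SE, n = 2 arrays per time; adjusted p = 0.0429), -0.95 ± 0.12 at 6 h (adjusted p = 0.000203) and -1.49 ± 0.12 at 12 h (adjusted p = 4.02e-06). At 12 h the signal was 0.357 of that at 0 h. All log2 changes given here were taken after 7.9 was added to each signal, and this understates the changes of low signals.

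The other 6 Ccnd2 probe sets were lower too, by different amounts. At 12 h all 7 fell, by log2 changes from -2.13 to -1.07 with a median of -1.53. The largest change was that of 1416124_at, which read 498.6 and 580.1 at 0 h, 268.5 and 302.2 at 3 h, 189.2 and 187.5 at 6 h, and 125.4 and 109.0 at 12 h. Only 0.511% of all tested probe sets had a larger fall at 12 h. The smallest change was that of 1430127_a_at, which read 4307 and 4272 at 0 h and 2025 and 2060.0 at 12 h (-1.07 ± 0.11). Probe set 1434745_at had the smallest error, with 5400.4 and 5445 at 0 h against 1361 and 1395 at 12 h, a log2 change of -1.97 ± 0.10 (adjusted p = 1.12e-07). The 7 probe sets therefore shared a direction and differed in size by about 1 log2 unit, more than their errors of 0.10 to 0.27. Probe sets ending in _s_at or _x_at, here 1448229_s_at and 1455956_x_at, can bind other transcripts and are uncertain to that degree; they changed by -1.15 and -1.53.

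Ccnd2 was the 1 cyclin gene that fell at 3 h in the fit. There 5 of its 7 probe sets were called and all 7 had negative changes, from -0.90 to -0.37. These early calls rest on all 4 arrays of the comparison. Without replicate 1 or 2 at 0 h, 1 and 0 cyclin probe sets were called at 3 h, and without replicate 1 or 2 at 3 h, 0 and 2. Without the intensity trend 1 was called. The 7 calls at 6 h and the 7 at 12 h were kept in every alternative in which the probe set was tested. From 3 to 6 h and from 6 to 12 h all 7 changes were again negative, from -0.76 to -0.41 and from -0.74 to -0.12. For each of these steps 2 of the 7 were called, against backgrounds of 0.48% and 2.41% of all probe sets that fell. From 3 to 6 h, 1434745_at lost its call in 3 of 17 alternatives and 1455956_x_at in 8 of 17. From 6 to 12 h, 1434745_at lost it in 1 of 17 and 1416122_at in 11 of 18.

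**Figure D2:**
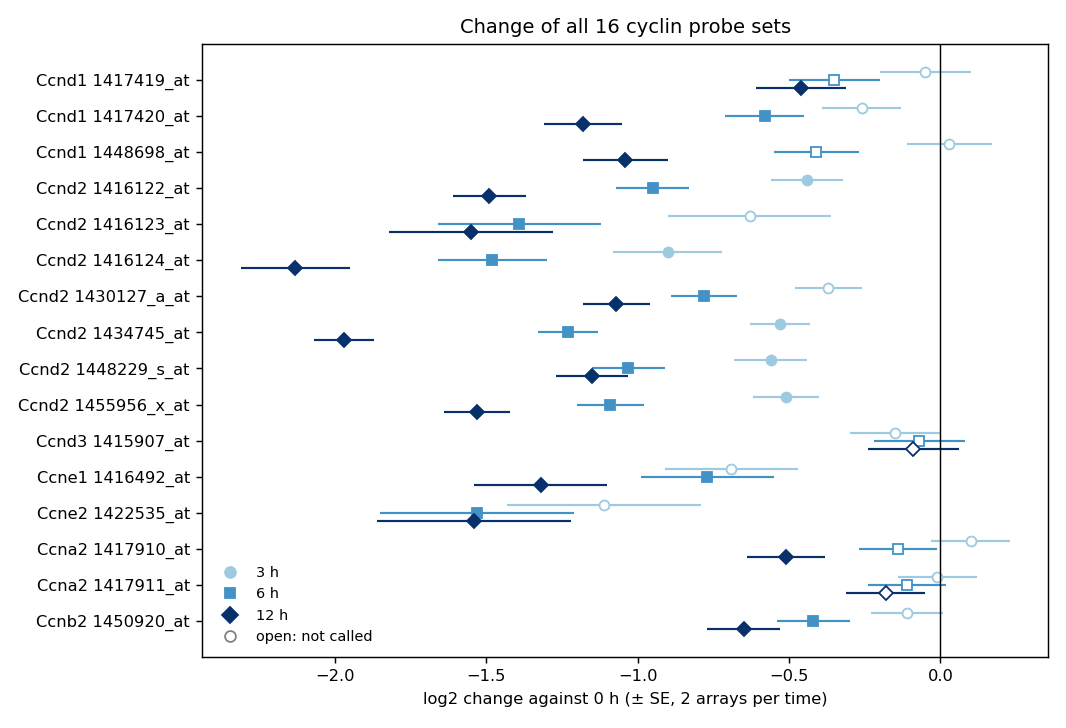
Log2 change against 0 h (x axis) of all 16 cyclin probe sets (rows) at 3 h (circles), 6 h (squares) and 12 h (diamonds); bars are the standard error of the model, with 2 arrays per time, and open symbols did not pass an adjusted p of 0.05. The 7 Ccnd2 rows shift left at each later time, the Ccnd1 rows shift mainly at 6 and 12 h, and the Ccnd3 row stays within 0.15 of 0.

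Cyclin D1, the D-type cyclin most often tied to mitogen signalling, had no called probe set at 3 h and fell later. Its highest probe set, 1448698_at, read 836.5 and 805.8 at 0 h and 816.3 and 860.0 at 3 h, so the groups overlapped, and the change was 0.03 (95% interval -0.29 to 0.34; adjusted p = 0.935). At 6 h it read 686.2 and 549.8, below both 0 h arrays, and the change of -0.41 ± 0.14 missed the threshold (adjusted p = 0.0613). At 12 h it read 366.9 and 423.6, a fall of 1.04 ± 0.14 on the log2 scale (adjusted p = 0.000199). The step from 6 to 12 h was -0.63 ± 0.14 (adjusted p = 0.0392), which did not pass in 12 of 18 alternatives (0.0542 to 0.208).

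The probe sets of Ccnd1 disagreed in size. Probe set 1417420_at read 703.5 and 725.6 at 0 h, 623.3 and 571.6 at 3 h, 478.3 and 475.1 at 6 h, and 303.0 and 320.1 at 12 h. It fell by 0.58 ± 0.13 at 6 h (adjusted p = 0.00867) and by 1.18 ± 0.13 at 12 h (adjusted p = 4.16e-05). Its 6 h call was lost without replicate 1 or 2 at 0 h (adjusted p = 0.054 and 0.0719). Probe set 1417419_at read 593.0 and 629.3 at 0 h and 442.3 and 441.9 at 12 h, a change of -0.46 ± 0.15 (adjusted p = 0.0367). Leaving out any 1 of the 4 arrays compared ended that call (adjusted p = 0.103 to 0.175), as did leaving out the trend (0.0755) or the filter (0.05). All 3 probe sets were lower at 12 h, and 1448698_at and 1417420_at kept the call in every alternative in which they were tested.

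Cyclin D3, the third D-type cyclin, did not pass the test at any time. Ccnd3 read 520.0 and 598.7 at 0 h, 502.1 and 504.2 at 3 h, 574.5 and 487.9 at 6 h, and 560.0 and 493.0 at 12 h. The 3 h arrays lay just below the 0 h arrays, the 6 and 12 h arrays overlapped them, and at 12 h the change was -0.09 with a 95% interval of -0.40 to 0.23 (adjusted p = 0.7). At 12 h the upper ends of the intervals of the 7 Ccnd2 probe sets lay between -1.75 and -0.84. The difference between the genes was not tested.

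Both E cyclins were lower from 3 h on and were called at 6 and 12 h. Ccne2 read 312.1 and 346.0 at 0 h, 139.6 and 157.5 at 3 h, 73.6 and 158.8 at 6 h, and 89.2 and 129.2 at 12 h. Every treated array was below both 0 h arrays, the 6 h arrays spanned those of 3 and 12 h, and the 12 h arrays lay below those of 3 h. The change at 3 h, -1.11 ± 0.32, was just outside the threshold (adjusted p = 0.0501), and only 0.53% of all tested probe sets had a larger fall. It passed in 9 of the 17 alternatives in which it was tested, among them the fit with 1 probe set per gene (adjusted p = 0.0337), the replicate block (0.0163) and the arrays scaled to the same median (0.0247). The falls of 1.53 ± 0.32 at 6 h (adjusted p = 0.00485) and 1.54 ± 0.32 at 12 h (adjusted p = 0.00265) were called. The 6 h change was -1.01 without the first 6 h array and -2.05 without the second. Steps after 3 h were not called: the change from 6 to 12 h was -0.01 (95% interval -0.70 to 0.67).

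Ccne1 read 347.4 and 325.7 at 0 h, 184.0 and 230.1 at 3 h, 226.9 and 166.5 at 6 h, and 149.2 and 113.5 at 12 h. No treated array reached the 0 h level. The change was -0.69 ± 0.22 at 3 h (adjusted p = 0.0813). The fall at 6 h was 0.77 ± 0.22 (adjusted p = 0.0284), which did not pass when a 0 h array, the second 6 h array, the filter or the trend was left out (adjusted p = 0.0556 to 0.154). At 12 h the gene fell by 1.32 ± 0.22 (adjusted p = 0.000775). The change from 3 to 6 h was -0.08 (95% interval -0.57 to 0.41) and that from 6 to 12 h -0.55 (-1.04 to -0.06; adjusted p = 0.219).

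Of the cyclins of later phases, Ccnb2 fell at 6 and 12 h and Ccna2 at 12 h. Ccna2, read by 1417910_at, gave 1231 and 1158 at 0 h, 1402 and 1172 at 3 h, 1038 and 1123 at 6 h, and 809.3 and 860.5 at 12 h. The 0 and 3 h arrays overlapped, and the 12 h arrays were below all others. The fall at 12 h was 0.51 ± 0.13 (adjusted p = 0.00792), and it did not pass when the first 0 h array (adjusted p = 0.0684) or the first 12 h array (0.0514) was left out. The second Ccna2 probe set, 1417911_at, read 1035 and 1078 at 0 h and 951.0 and 906.5 at 12 h, with a change of -0.18 (95% interval -0.48 to 0.11; adjusted p = 0.328). The fall of Ccna2 thus rests on 1 of its 2 probe sets.

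Ccnb2 read 989.4 and 1037 at 0 h, 907.7 and 967.9 at 3 h, 752.1 and 754.8 at 6 h, and 662.0 and 619.5 at 12 h. The groups did not overlap at any step, though the step changes were -0.11, -0.31 and -0.23 and none was called. Against 0 h it fell by 0.42 ± 0.12 at 6 h (adjusted p = 0.0239) and by 0.65 ± 0.12 at 12 h (adjusted p = 0.00121). The 6 h call was lost without any 1 of the 4 arrays compared or without the trend (adjusted p = 0.0567 to 0.151). The 12 h call was kept in all 18 alternatives.

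Over the whole time course, 13 of the 16 probe sets changed by the moderated F test, against 29.3% of all tested probe sets. Those that did not were Ccnd3 (adjusted p = 0.855), Ccna2 1417911_at (0.62) and Ccnd1 1417419_at (0.0818). By the 12 h change of the brightest probe set, the genes ran from Ccne2 (-1.54), Ccnd2 (-1.49), Ccne1 (-1.32) and Ccnd1 (-1.04) to Ccnb2 (-0.65), Ccna2 (-0.51) and Ccnd3 (-0.09). Differences between genes in that order were not tested.

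**Figure D3:**
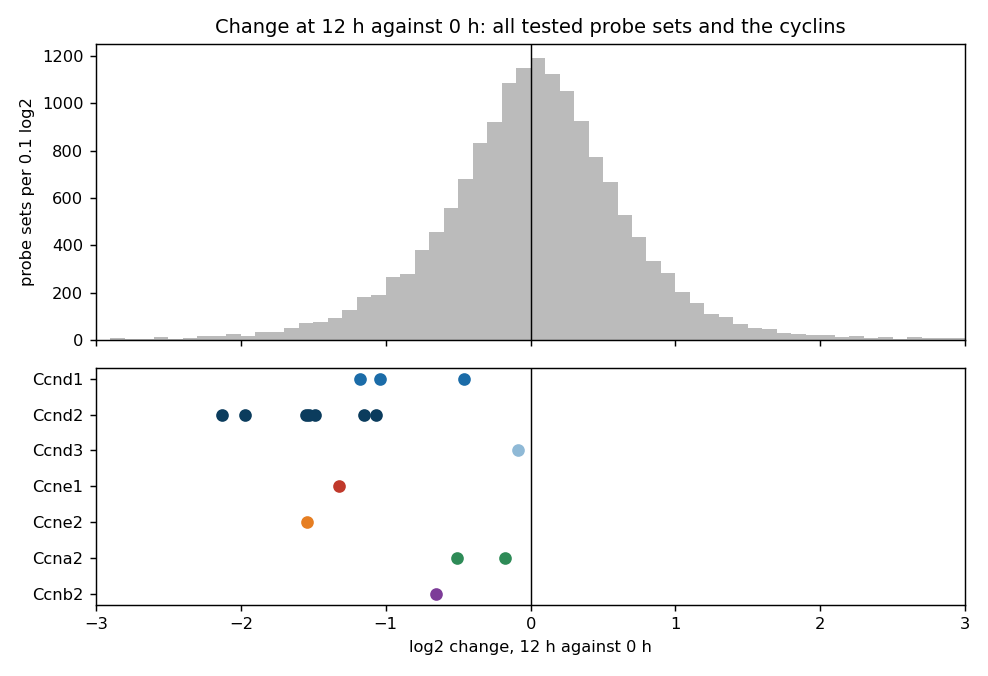
Upper panel: number of tested probe sets per 0.1 log2 unit of change at 12 h against 0 h (x axis from -3 to 3), 15838 in all. Lower panel: the 16 cyclin probe sets on the same axis, 1 row per gene; all lie below 0, from -2.13 (Ccnd2) to -0.09 (Ccnd3), where the median of all probe sets was 0.027.

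Promoter sequences were at hand for Ccne1, Ccnb1, Ccnb2 and Ccnd3 (RefSeq genes of GRCm38.p6). Those of Ccnb2 and Ccne1 are shown because both genes fell and because their promoters differ in the elements they hold. Each run is the 250 bases before the annotated start, read 5′ to 3′ on the strand of the gene. In Ccnb2, capitals mark CCAAT (the site of the factor NF-Y) and TTTGAA (the letters of the cell cycle homology region), and in Ccne1 they mark GGGCGG or its complement CCGCCC (the GC box bound by Sp1).
Ccnb2, chr9:70421555-70421804, minus strand: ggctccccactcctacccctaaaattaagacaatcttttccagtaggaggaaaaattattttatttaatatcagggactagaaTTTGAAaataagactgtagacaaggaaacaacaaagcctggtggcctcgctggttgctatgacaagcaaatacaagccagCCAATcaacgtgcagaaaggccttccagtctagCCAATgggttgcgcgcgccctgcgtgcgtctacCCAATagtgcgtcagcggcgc
Ccne1, chr7:38107491-38107740, minus strand: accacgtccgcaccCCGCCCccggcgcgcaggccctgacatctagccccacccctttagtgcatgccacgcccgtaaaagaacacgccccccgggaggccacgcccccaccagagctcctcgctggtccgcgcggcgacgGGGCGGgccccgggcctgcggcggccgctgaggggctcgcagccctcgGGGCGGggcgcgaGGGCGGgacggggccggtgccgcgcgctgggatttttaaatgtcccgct

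The Ccnb2 window held 3 CCAAT boxes, all on the gene's strand and 33 bases apart, at -87, -54 and -21 from the start, and 1 TTTGAA at -167. Of 32841 promoter windows of this length, 33.9% held at least 1 CCAAT on either strand, 2.79% held 3 or more, and 16% held TTTGAA. The Ccne1 window held no CCAAT and 4 GC boxes, where 32.7% of windows held at least 1 and 8.47% held 3 or more. Of the other members, Ccnb1 had 2 CCAAT boxes 32 bases apart and 3 GC boxes. The Ccnd3 windows, at its 2 annotated starts, had 0 and 1 CCAAT and 2 and 1 GC boxes. The E2F letters TTTCCCGC, TTTCGCGC, TTTGGCGC and TTTGCCGC, which 1.86% of windows held, were in none of these windows. The searches covered both strands, and a match is a description of the letters, not of binding.

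Partners and regulators of the cyclins were read from lists chosen with earlier results of these data known, each gene by its highest probe set. For such probe sets the background of called genes was 7.15% higher and 2.76% lower at 3 h, 15.1% and 8.56% at 6 h, and 19.1% and 16.2% at 12 h. Of the CDKs and their binding and activating subunits, 0 of 8 tested were higher and 0 lower at 3 h, 0 and 2 at 6 h, and 1 and 5 at 12 h; the median at 12 h was -0.41. Cdk2, the partner of the E cyclins, read 1006 and 1038 at 0 h, 678.9 and 786.9 at 3 h, 534.5 and 679.1 at 6 h, and 321.4 and 436.5 at 12 h. It fell by 0.75 ± 0.17 at 6 h (adjusted p = 0.00827), though not when a 0 h array or the first 6 h array was left out (adjusted p = 0.0505 to 0.0624), and by 1.43 ± 0.17 at 12 h (adjusted p = 6.9e-05).

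Cdk4, the partner of the D-type cyclins, did not pass the test. Its probe set here was an _x_at one, which can bind other transcripts. Cdk4 read 6231 and 6569 at 0 h against 6509 and 5827 at 12 h, with a change of -0.05 (95% interval -0.33 to 0.22, adjusted p = 0.779). Cdk6 was at signals of 19.1 to 58.2 on the 8 arrays and was left out by the filter. Cdk1, the partner of the B cyclins, fell by 0.50 ± 0.12 at 12 h (adjusted p = 0.00691), which did not pass without the second 0 h or 12 h array (0.0565 and 0.0699). Cks2, a small CDK-binding subunit read by an _s_at probe set, fell by 0.81 ± 0.11 at 12 h. Of the CDK-activating kinase, the catalytic Cdk7 fell by 0.55 ± 0.13 and the assembly factor Mnat1 rose by 0.62 ± 0.16; Cdk7 did not pass without the first 0 h array, nor Mnat1 without that array or the second at 12 h.

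The CDK inhibitors went in both directions, with 2 of 7 higher and 1 lower at 3 h, 2 and 1 at 6 h, and 1 and 2 at 12 h. The backgrounds were 7.15% higher and 2.76% lower at 3 h, 15.1% and 8.56% at 6 h, and 19.1% and 16.2% at 12 h. Cdkn2b, which encodes the CDK4 and CDK6 inhibitor p15, read 2371 and 2584 at 0 h, 5284 and 5398 at 3 h, 7283 and 6343 at 6 h, and 6066 and 5745 at 12 h. It rose by 1.11 ± 0.11, 1.45 ± 0.11 and 1.25 ± 0.11 (adjusted p = 7.32e-05, 3.7e-06 and 7.85e-06), and all 3 calls were kept in 18 of 18 alternatives. Cdkn2c, of the same family (p18), went the other way, from 1693 and 1813 at 0 h to 759.5 and 723.7 at 12 h, a fall of 1.23 ± 0.12. Cdkn1a, the gene of the broad CDK inhibitor p21, rose by 0.55 ± 0.13 at 6 h (adjusted p = 0.00897). It did not pass there when the first 0 h or 6 h array or the trend was left out, and at 12 h the change was 0.26 (adjusted p = 0.133). Cdkn1b, which encodes p27, an inhibitor of CDK2 complexes, fell by 0.71 ± 0.18 at 12 h (adjusted p = 0.00974), which did not pass when the second 0 h array, the first 12 h array or the trend was left out.

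Of the Rb and E2F family, 0 of 14 tested genes were higher and 0 lower at 3 and at 6 h, and 1 and 3 at 12 h, with a median of -0.08. For this list and the next, the background was 15.1% higher and 8.56% lower at 6 h, and 19.1% and 16.2% at 12 h. The repressive E2F genes E2f6 and E2f8 fell by 1.56 ± 0.30 and 1.48 ± 0.21 at 12 h. Tfdp1, the dimer partner of E2F factors, fell by 0.32 ± 0.11, which did not pass when any 1 of the 4 arrays compared or the trend was left out, and Lin37, a subunit of the DREAM complex, rose by 0.72 ± 0.21 (not called without either 0 h array, the first 12 h array or the trend). Of 8 genes of CDK phosphatases and kinases, 0 were higher and 0 lower at 3 h, 0 and 2 at 6 h, and 1 and 2 at 12 h. Cdc25a, whose product removes the inhibitory phosphates of CDK2, fell by 0.85 ± 0.17 at 6 h and 1.08 ± 0.17 at 12 h (adjusted p = 0.00443 and 0.000518). Wee1 and Pkmyt1, both kinases that add such phosphates, went opposite ways at 12 h, with Wee1 at -0.68 ± 0.23 and Pkmyt1 at 0.58 ± 0.15; Wee1 did not pass when any 1 of the 4 arrays compared, the filter or the trend was left out, nor Pkmyt1 without the first array of either time.

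In the list of cyclin degradation, 0 of 24 tested genes were higher and 3 lower at 3 h, 3 and 4 at 6 h, and 4 and 6 at 12 h. The backgrounds were 7.15% higher and 2.76% lower at 3 h, 15.1% and 8.56% at 6 h, and 19.1% and 16.2% at 12 h. The median change of the list was -0.06, -0.02 and -0.15 at these times. Skp1, the adaptor of SCF ubiquitin ligases, fell at once, from 5807 and 5091 at 0 h to 2071 and 1987 at 3 h. That change was -1.42 ± 0.11 (adjusted p = 1.28e-05). Skp1 read 1523.6 and 1599.6 at 6 h and 2355.9 and 2108.7 at 12 h, where it was at -1.28 ± 0.11 against 0 h. Its step from 6 to 12 h was a called rise of 0.51 ± 0.11 (adjusted p = 0.0343). Skp2, the F-box protein that targets p27, went from 818.7 and 726.0 at 0 h to 312.6 and 356.3 at 3 h. That change was -1.19 ± 0.16 (adjusted p = 0.00069), and Skp2 was at -1.61 ± 0.16 at 12 h. Fbxw7, the F-box protein for cyclin E, fell by 0.89 ± 0.24 at 12 h, which did not pass without the first 0 h or second 12 h array. Cryab, a small heat shock protein that acts with FBXO4 on cyclin D1, fell by 1.37 ± 0.18 at 12 h. Cdc27, a subunit of the anaphase-promoting complex that degrades A and B cyclins, rose by 1.53 ± 0.27 at 12 h, from 106.2 and 178.7 to 318.9 and 535.7. Cdc20, its activator in mitosis, had a change of -0.17 at 12 h (95% interval -0.49 to 0.15; adjusted p = 0.426).

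Of 14 tested cyclins outside the D, E, A and B classes, 2 were higher and 0 lower at 3 h, against backgrounds of 7.15% and 2.76%. At 6 h 3 were higher and 2 lower (backgrounds 15.1% and 8.56%). At 12 h 3 were higher and 3 lower, near the backgrounds of 19.1% and 16.2%, with a median of 0.03. Ccnl1, a cyclin of the splicing apparatus, read 802.7 and 681.1 at 0 h and 2340.0 and 1840 at 3 h, and it was up by 1.48 ± 0.14 at 3 h and 1.69 ± 0.14 at 12 h (adjusted p = 3.61e-05 and 4.02e-06). Ccnt2, a subunit of the elongation factor P-TEFb, rose by 1.02 ± 0.22 at 3 h, which did not pass when a 0 h array, the second 3 h array or the trend was left out. Ccnc, the cyclin of the Mediator kinase module, rose by 0.97 ± 0.20 at 12 h. Ccnf, an F-box protein of G2, fell by 1.87 ± 0.33 at 12 h, from 199.0 and 189.1 to 37.3 and 59.3.

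**Figure D4:**
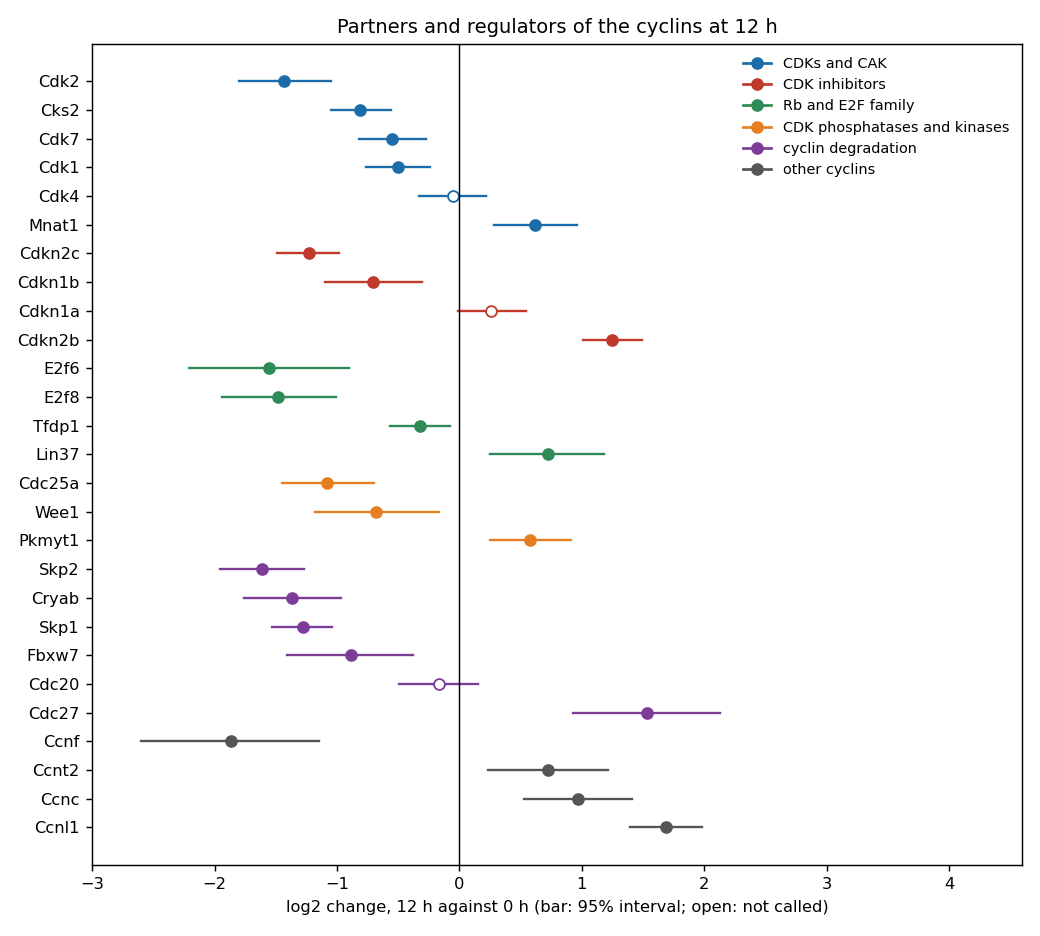
Log2 change at 12 h against 0 h (x axis) of named partners and regulators of the cyclins (rows), coloured by list; bars are 95% intervals of the model with 2 arrays per time, and open circles did not pass an adjusted p of 0.05. Cdk2 (-1.43), Skp2 (-1.61) and Ccnf (-1.87) lie far to the left, Cdkn2b (1.25) and Ccnl1 (1.69) to the right, and Cdk4 at -0.05.

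The genes whose course was most like that of each changed cyclin were taken by the root mean square difference of log2 values, centred on 0 h, over the 8 arrays and 14584 other named probe sets. For Ccnd2 they were Dmkn (0.108), Tk1 (0.111), which encodes thymidine kinase, and Galc (0.12), with Tk1 at -0.42, -1.15 and -1.42 at 3, 6 and 12 h. For Ccnd1 they were Lats2 (0.081), a Hippo pathway kinase gene, Ube4b (0.092) and Sesn1 (0.104), and Lats2 was at 0.04, -0.51 and -1.11. The nearest to Ccne1 were Micos13 (0.126), Atp2a2 (0.13) and Plxnd1 (0.131), and those to Ccne2 were Rnase4 (0.186), Cbx5 (0.216) and Mrpl18 (0.222). Ccna2 was followed most closely by Tmem53 (0.055), Son (0.07) and Mtmr14 (0.084), and Ccnb2 by Itgb5 (0.05), Ttc23 (0.061) and Tead2 (0.062). No member was among the candidates. A small difference over 8 arrays of 4 groups describes a course of like shape and size, and nothing more.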

How the data were processed

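RNA of 8 arrays was analysed, 2 at each of 0, 3, 6 and 12 h of 0.2 mM BPA, grouped by the sample titles. The values are the authors' deposited probe set intensity values on a linear scale; the summary software is not given in the sources used here. With the top and bottom 2% of values removed, the mean came to 499.96 on every array, and a general change of RNA would not be seen. Symbols came from the platform annotation, updated through Entrez identifiers to RefSeq genes of GRCm38.p6. After 64 control probe sets were left out, log2(signal + 7.9) was taken, 7.9 being the 10th percentile, and probe sets above the 30th percentile of mean log2 signal were kept (15838; 6788 left out). The linear model of limma 3.58.1 (R 4.3.3) gave each time its own mean over the 8 arrays (lmFit, eBayes with trend; 4 residual and 7.82 prior degrees of freedom), two-sided, Benjamini-Hochberg over all probe sets tested; an adjusted p under 0.05 was called. Earlier work on these data used 1 probe set per gene, here an alternative. The fit was tested on simulated data. The members and lists were chosen with earlier results of these data known. The rule for named genes took all member probe sets, up to 4 called genes per list with the largest changes, 8 partners whatever their result, and the 3 nearest genes to each changed cyclin. Depth does not apply; the number of arrays limits precision. Alternatives were other normalizations, offsets and filters, no trend, 2-group fits, the replicate block, 1 probe set per gene and leaving out each array. The arrays were treated as unpaired. Deviations of same-numbered arrays correlated weakly, at 0.007 to 0.119, which cannot exclude a pairing.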

Additional observations from a re-analysis of the deposited data

How the results depend on the processing

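The alternatives were run on every comparison. No cyclin probe set was called higher than at 0 h in any of them, and every change against 0 h that was called kept its sign; of the changes of single cyclin probe sets, 1238 kept their side of the threshold, 91 no longer passed, 27 passed and 29, none of them called, changed sign. Where not stated, the cause was not tested. Cyclin probe sets called lower at 3 h numbered 5, and 8 once all arrays had the same median, 1 without the trend and 8 with 2-group fits. With 1 probe set per gene, 7 cyclins were tested, and 2, 5 and 6 were lower at 3, 6 and 12 h, 0 and 2 in the steps to 6 and 12 h, and 6 changed over the time course. From 3 to 6 h, 2 were lower, 0 without the trend and 1 with 2-group fits. From 6 to 12 h, 4 were lower, 1 with the same median, 2 without a filter, 0 without the trend and 1 with 2-group fits. Without each array in turn, the cyclin counts ran from 0 to 7 at 3 h, 8 to 11 at 6 h, 12 to 14 at 12 h, 0 to 2 and 1 to 3 in the steps, and 11 to 14 over the time course. Of all probe sets at 3 h, 936 were higher (517 without the trend) and 454 lower (981 with the same median, 153 without the trend, 804 with 2-group fits). At 6 h 1400 were lower (905 without the trend, 844 with 1 probe set per gene), and at 12 h 2600 (1521 with 1 probe set per gene). From 3 to 6 h, 78 were higher (0 without the trend, 49 with 1 probe set per gene, 43 with 2-group fits) and 76 lower (0, 48 and 47). From 6 to 12 h, 90 were higher (186 with the same median, 7 without the trend, 23 with 2-group fits) and 381 lower (229, 55 and 104). Over the time course 4638 changed, 3083 without the trend. Without each array in turn, counts ran at 3 h from 409 to 1115 higher and 99 to 623 lower, at 6 h from 1164 to 2048 and 634 to 1435, at 12 h from 1833 to 2919 and 1625 to 2806, from 3 to 6 h from 15 to 68 and 9 to 130, from 6 to 12 h from 24 to 149 and 150 to 315, and over the time course from 2764 to 5331. With the replicate block, on which the check of pairing does not decide, 118 of all probe sets were lower from 3 to 6 h. From 6 to 12 h, 176 were higher and 596 lower with the block. Cyclins called lower with the block numbered 7, 11 and 14 at 3, 6 and 12 h. Uncalled changes that turned sign were, with the same median, Ccnd3 (0.0932), Ccna2 1417911_at (0.0312) and Ccne2 (0.0835) from 6 to 12 h and Ccna2 1417910_at (-0.03) and Ccnd1 1448698_at (-0.10) at 3 h; with quantile normalization, Ccnd3 (0.0402) and Ccne2 (0.0848) from 6 to 12 h. Without each array in turn, uncalled changes ran for Ccnd3 from -0.19 to 0.0415 at 6 h, -0.19 to 0.0148 at 12 h, -0.0437 to 0.19 from 3 to 6 h and -0.13 to 0.11 from 6 to 12 h; for Ccnd1 from -0.25 to 0.15 (1417419_at) and -0.0082 to 0.0663 (1448698_at) at 3 h; for Ccnd2 1416123_at from -0.45 to 0.14 from 6 to 12 h; for Ccne1 from -0.29 to 0.14 from 3 to 6 h; for Ccne2 from -0.94 to 0.0939 from 3 to 6 h and -0.53 to 0.50 from 6 to 12 h; for Ccna2 1417910_at from -0.0262 to 0.23 at 3 h; and for Ccna2 1417911_at from -0.0793 to 0.0574 at 3 h, -0.28 to 0.0558 at 6 h, -0.27 to 0.0668 from 3 to 6 h and -0.24 to 0.0934 from 6 to 12 h. The number of arrays, 2 per time, limits the precision of all values.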
